A study of Drosophila melanogaster with 21 samples.

Results

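Total RNA of Drosophila melanogaster embryos carrying the allele Top3b26 was compared with that of wild-type embryos, over every FlyBase gene of the deposited count table. The table held 17869 FlyBase genes among its 23932 features, and 10001 of these genes had enough reads to be tested. Each genotype was represented by 3 libraries. The labels give the tissue as embryo and name no stage, age, sex or strain, and they do not describe the lesion in Top3b26 or what else the wild-type line shares with it. Of the 21 samples of the series, 12 were total RNA libraries, and the 6 from the mutant genotypes Y332F and delRGG entered the fit to help estimate the spread. Levels are given as CPM, TMM-scaled counts per 1000000, which are not corrected for gene length, and a gene was called at an edgeR adjusted p under 0.05.

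Top3b is a topoisomerase that passes strands of DNA or RNA through one another, and it works with the adaptor protein Tdrd3 and the RNA-binding protein Fmr1. The series asked what the loss of its enzymatic activity does to neurons, neuromuscular junctions, ageing and movement. An embryo begins with RNA deposited by the mother, divides rapidly, then clears this store while its own genome becomes active. Later it forms muscle, nerve, gut and a cuticle, each with its own set of transcripts.

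Library totals lay between 22400118 and 31125584 counts in these 6 libraries, and replicates of a genotype correlated across features with a Pearson's r between 0.962 and 0.993. The labels do not say that replicates came from separate collections, so the p-values measure the spread between these libraries, which may be technical. Wild-type replicate 3 stood apart on markers of late embryos. The mean log2 CPM of cuticle, chitin, muscle and neuron genes, used here as a late marker score, was 3.21, 3.78 and 4.89 in wild-type replicates 1 to 3 and 1.30, 0.36 and 0.56 in Top3b26. Wild type and Top3b26 did not overlap on this score, and wild-type replicate 3 was the highest of the 6. In the other mutants the score was 1.69, 1.22 and 1.93 in Y332F and 3.925, 2.55 and 1.10 in delRGG. Libraries of 1 genotype, delRGG, thus reached from the range of wild type to that of Top3b26. Results are therefore also given without that library, and from a fit with the score as a covariate. The wild-type columns carry another letter than the mutant columns, and if it marks a library set, set and genotype cannot be told apart. Markers of adult gonads were sparse: 2 of 25 egg shell and yolk genes and 11 of 106 testis genes passed the filter on low counts. The summed testis list was at 204, 199 and 185 CPM in wild type and a little higher, at 211, 238 and 216 CPM, in Top3b26. The sum over all genes was also higher in every Top3b26 library. The median log2 fold change of the tested testis genes, 3 of them at the filter level in wild type only, was -0.86. The part of the testis list in the results was not tested.

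Rises in Top3b26 were many and small, and falls were many and large. Of the 10001 genes tested, 5695 were called, a background of 56.9%. The 2392 genes called higher were 23.9% of those tested, and the 3303 called lower were 33%. These 2 shares are the background for the counts of every list below. Genes called higher rose little, with a median log2 fold change of 0.42, while genes called lower had a median of -3.07. A change of 2-fold or more was reached by 165 genes that rose (1.65%) and by 2847 that fell (28.5%). At 4-fold or more there were 41 that rose (0.41%) and 2309 that fell (23.1%). The 3 libraries of each genotype did not overlap, with Top3b26 above, for 33.2% of tested genes and, with Top3b26 below, for 37.6%. Genes named below as a largest rise or fall were picked among called genes without overlap and with a mean of at least 5 CPM in the higher genotype. Their lack of overlap was thus set by the choice and is no support. The median over all tested genes was -0.02. With total counts in place of TMM the split became 1642 higher and 3563 lower, and the median moved to -0.12.

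Genes that rose and genes that fell also differed in level. Genes called higher had a median of 77.9 CPM in wild-type embryos and 104 CPM in Top3b26, while genes called lower went from a median of 6.13 to 0.587 CPM. Among the 2500 tested genes with the highest mean levels, 1076 rose and 169 fell. Among the 2501 with the lowest, 72 rose and 1674 fell. In the 2500 genes of highest level the shares were 43.0% higher and 6.76% lower. In the next 2500 they were 38.8% and 13.5%. The background for the lists below is not matched for level, and the part of level in their shares was not tested. The share of all CPM held by genes called lower was 9.54, 9.65 and 14.3% in wild-type replicates 1 to 3 and 5.17, 4.42 and 4.87% in Top3b26. Summed over all FlyBase genes, TMM-scaled CPM came to 970800, 959500 and 958000 in wild type and 1001000, 1062000 and 1025000 in Top3b26. The summed levels of lists are to be read beside these higher sums in Top3b26. Of the tested genes, 1579 reached the filter level of 0.396 CPM in every wild-type library and not in every Top3b26 library. Such a gene entered through the genotype where it was high and had to be lower in the other, and 1441 of the 1579 were called lower. Where a list below holds 2 or more such genes, their number is given, and its count of falls and its median are then a description and no support. Of the genes at least 4-fold lower, wild-type replicate 3 was the highest wild-type library for 97.0%, against 52.8% of all tested genes and 21.2% of the genes that rose under 2-fold. In whole-embryo RNA, fewer cells of a type and less RNA per cell cannot be told apart.

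**Figure D1:**
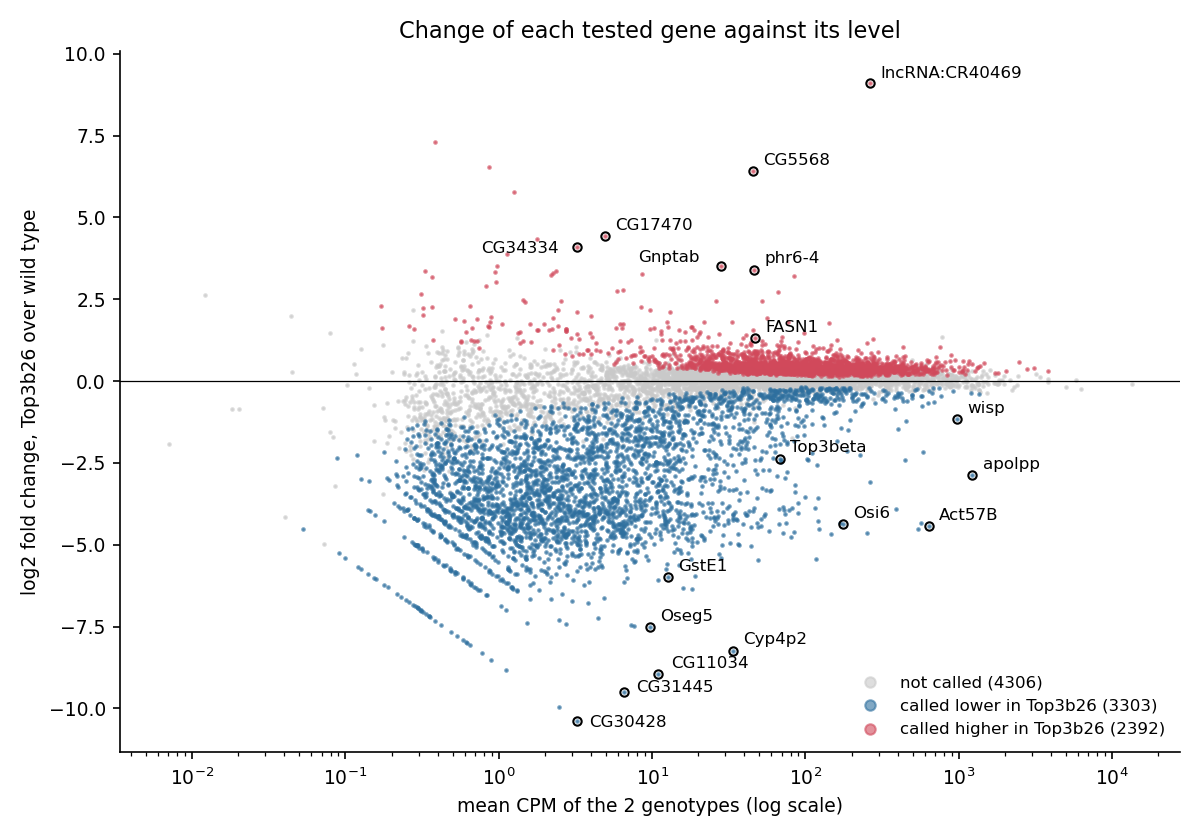
Log2 fold change of Top3b26 over wild type (vertical axis) against the mean CPM of both genotypes (horizontal log axis) for 10001 tested genes, with called genes in colour and 18 genes named. Genes called lower lie mostly at low levels, genes called higher lie mostly at high levels and close to 0, and the diagonal bands at lower left are genes with few or no counts in Top3b26.

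The targeted gene was lower in every Top3b26 library. Top3beta, the gene of the enzyme itself, stood at 125, 122 and 94.5 CPM in the wild-type libraries and 23.3, 21.1 and 21.8 CPM in Top3b26. The Top3b26 libraries all lay below the wild-type ones, with no overlap (log2 fold change -2.37, SE 0.13, edgeR adjusted p 1.1e-06). Reads for the gene thus remained at 19.4% of the mean wild-type level, and the counts do not show where in the gene they lie. Its known partners did not pass the test, with log2 fold changes of 0.26 (adjusted p 0.099 by edgeR) for Tdrd3 and 0.15 (adjusted p 0.27 by edgeR) for Fmr1. Of the other DNA topoisomerases, Top3alpha rose from 68.1, 74.1 and 61.4 CPM to 94.4, 92.8 and 94.5 CPM (log2 fold change 0.47, SE 0.14, edgeR adjusted p 0.015). Top1 and Top2, the enzymes that relax and untangle DNA, did not pass, at 0.23 (adjusted p 0.24 by edgeR) and 0.14 (adjusted p 0.29 by edgeR). The Argonaute genes AGO1 and AGO2, whose proteins carry microRNAs and small interfering RNAs, fell by 0.45 and 0.28 on the log2 scale (edgeR adjusted p 0.0014 and 0.017), with no overlap between genotypes for either gene. Leaving out wild-type replicate 3 ended the call of Top3alpha, and leaving out any single library other than that one ended the call of AGO2. Top3alpha, AGO2, Tdrd3, Fmr1 and Top2 were picked after their values were seen.

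A few genes went from near 0 to a clear level. The largest rise was that of lncRNA:CR40469, a long noncoding RNA gene of the X chromosome that RefSeq gives a span of 214 bases. It stood at 1.05, 0.722 and 1.05 CPM in the wild-type libraries and 447, 630.5 and 507 CPM in Top3b26 (log2 fold change 9.12, SE 0.29, edgeR adjusted p 7.3e-09). All 3 Top3b26 libraries lay far above all wild-type libraries. CG5568 stood at 0.970, 1.44 and 0.740 CPM in the wild-type libraries and 91.1, 95.3 and 83.6 CPM in Top3b26 (log2 fold change 6.42, SE 0.21, edgeR adjusted p 7.3e-09). CG17470 went from 0.422, 0.552 and 0.311 CPM to 8.62, 10.6 and 8.87 CPM and CG34334 from 0.464, 0.255 and 0.350 CPM to 6.24, 7.25 and 4.98 CPM, log2 fold changes of 4.44 and 4.09. Both genes were under 1 CPM in wild type, and lack of overlap was a condition of their choice. Gnptab, named for the enzyme that begins the mannose-phosphate tag of lysosomal proteins in mammals, rose from 4.09, 3.86 and 5.57 CPM to 49.9, 51.6 and 54.2 CPM (log2 fold change 3.52, SE 0.15, edgeR adjusted p 7.1e-08). The largest rise among DNA repair genes, that of the 6-4 photolyase gene phr6-4, took it from 8.90, 8.11 and 6.97 CPM to 81.9, 89.2 and 82.9 CPM (log2 fold change 3.40, SE 0.13, edgeR adjusted p 3.9e-08). In the RefSeq order of tested genes on arm 2L, phr6-4 and CG17470 are adjacent, and strand use in counting is not stated, so reads near their shared border are uncertain.

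Other genes were nearly lost. CG30428 stood at 6.54, 4.42 and 8.49 CPM in wild type and had 0 counts in all 3 Top3b26 libraries, at least 166-fold lower against a floor of 3 counts over the group (edgeR adjusted p 5.5e-06). CG31445 went from 12.5, 9.09 and 17.6 CPM to 0, 0 and 0.0405 CPM, where the last value is a single count. CG11034 was even across wild type at 21.3, 21.5 and 22.8 CPM and was at 0.0322, 0.0474 and 0.0405 CPM in Top3b26 (log2 fold change -8.96, SE 0.22, edgeR adjusted p 1.5e-09). The cytochrome P450 gene Cyp4p2 stood at 72.1, 62.4 and 66.7 CPM in the wild-type libraries and 0.289, 0.142 and 0.203 CPM in Top3b26 (log2 fold change -8.23, SE 0.50, edgeR adjusted p 2.2e-06). Oseg5, whose product belongs to the transport machinery of cilia, went from 20.8, 20.9 and 15.8 CPM to 0.161, 0 and 0.121 CPM (log2 fold change -7.51, SE 1.00, edgeR adjusted p 0.00052). Lack of overlap between genotypes was a condition for picking these 5 genes. For CG11034, Cyp4p2 and Oseg5 wild-type replicate 3 was close to the other wild-type libraries. In all, 40 genes called lower had 0 counts in every Top3b26 library, and so passed the filter through other libraries. With such genes set at the bound that 3 counts allow, the median of genes called lower was -3.06 and that of the cuticle list below -4.78. In the other direction, 1 gene called higher had 0 counts in every wild-type library.

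The other mutant genotypes were like Top3b26 in some of these genes and differed from it in others. Each was compared directly with Top3b26, and these contrasts share the Top3b26 libraries with the comparison above. lncRNA:CR40469 was at 384, 352 and 514 CPM in Y332F and at 0.673, 0.727 and 1.496 CPM in delRGG, and the log2 difference of Top3b26 was 9.11 (adjusted p 8.4e-09 by edgeR) from delRGG and 0.34 (adjusted p 0.39 by edgeR) from Y332F. It was thus high in Top3b26 and Y332F libraries and near 1 CPM in wild-type and delRGG libraries. CG5568 was at 84.8, 92.5 and 106 CPM in Y332F and 72.5, 75.9 and 92.5 CPM in delRGG, and the direct differences were -0.07 (adjusted p 0.83 by edgeR) and 0.16 (adjusted p 0.41 by edgeR). Gnptab was at 42.9, 47.8 and 52.2 CPM in Y332F and 38.2, 41.1 and 43.5 CPM in delRGG, with direct differences of 0.12 (adjusted p 0.66 by edgeR) and 0.34 (adjusted p 0.068 by edgeR). For CG5568 and Gnptab, and for phr6-4 at 86.9, 91.5 and 76.7 CPM in Y332F and 81.9, 88.6 and 108 CPM in delRGG, all 9 mutant libraries lay above all wild-type libraries. CG30428 was at 4.58, 4.46 and 5.14 CPM in Y332F and 10.3, 8.23 and 10.6 CPM in delRGG, near its wild-type levels. CG11034 was at 16.1, 17.5 and 19.1 CPM in Y332F and 23.3, 23.1 and 23.8 CPM in delRGG, with direct log2 differences of -8.64 (adjusted p 2.2e-09 by edgeR) and -9.05 (adjusted p 1.4e-09 by edgeR). Both genes were thus nearly absent from the 3 Top3b26 libraries and present in the other 9. CG17470 was at 0.303, 0.0406 and 0.163 CPM in Y332F and 0.740, 0.383 and 0.591 CPM in delRGG, so the 3 Top3b26 libraries stood above the other 9 (direct log2 differences 5.74 (adjusted p 0.0001 by edgeR) and 4.02 (adjusted p 0.00051 by edgeR)). Cyp4p2 was low in all 3 mutants, with 0.227, 0.162 and 0.204 CPM in Y332F and 1.78, 0.727 and 0.433 CPM in delRGG. CG31445 was at 3.07, 1.785 and 2.74 CPM in Y332F and 0.370, 0.07655 and 0.07875 CPM in delRGG. Oseg5 was at 4.35, 4.71 and 3.80 CPM in Y332F and 0.605, 0.689 and 0 CPM in delRGG. For CG31445 and Oseg5 all 9 mutant libraries lay below all wild-type libraries.

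**Figure D2:**
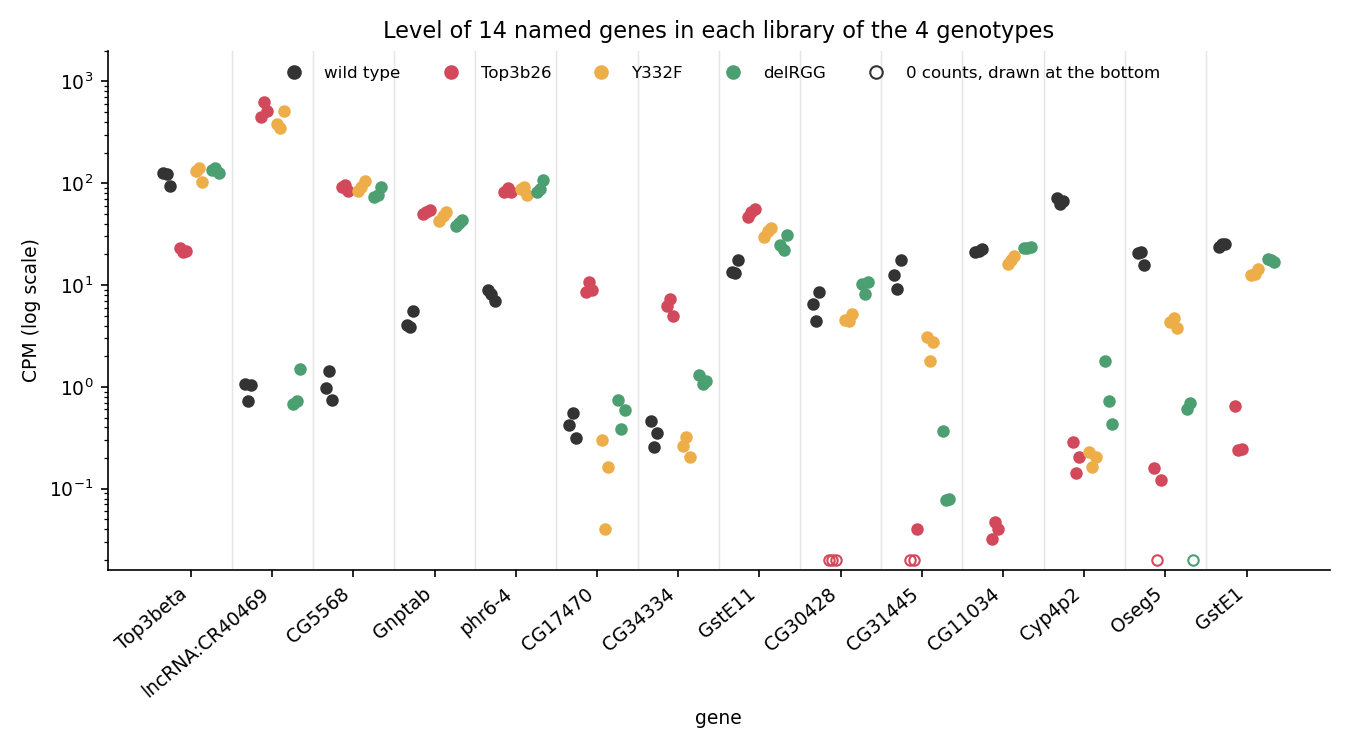
CPM on a log axis of 14 genes (horizontal axis) in each of the 12 total RNA libraries, 1 point a library, coloured by genotype, with open points for 0 counts. Top3beta is low in Top3b26 alone, CG5568, Gnptab and phr6-4 are low in wild type alone, and Cyp4p2 is high in wild type alone.

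Cuticle genes had the lowest median fold change of the 61 gene lists compared. The cuticle list held structural proteins of the outer coat, and 75 of its 139 members were tested. Of these, 74 fell and 1 was not called, with a median log2 fold change of -4.81, while 51 reached the filter level in wild type only. Their summed level was 607, 977 and 2433 CPM in wild-type embryos and 124, 38.9 and 69.4 CPM in Top3b26. Wild-type replicate 3 was the highest, and no Top3b26 library reached the lowest wild-type one. Without that library 65 fell, with a median of -4.04. Cpr67Fa2, a chitin-binding cuticle protein gene, went from 4.05, 11.3 and 28.3 CPM to 0.0965, 0.0948 and 0.0405 CPM (log2 fold change -7.46, SE 1.14, edgeR adjusted p 0.001). The gene of the giant apical matrix protein dumpy, dpy, fell from 176, 119 and 245 CPM to 56.4, 15.5 and 46.5 CPM (log2 fold change -2.18, SE 0.60, edgeR adjusted p 0.01), and TwdlF of the Tweedle family fell by 4.77 on the log2 scale (edgeR adjusted p 0.0054). Close copies within the Lcp65 and Cpr families can share reads, so values of single copies are uncertain.

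The Osiris genes, which act in cuticle-secreting epithelium, all fell among those tested. They were 14 of 25 genes, with a median of -4.34 and 5 at the filter level in wild type only. Osi6 stood at 164, 191 and 648 CPM in the wild-type libraries and 23.4, 9.10 and 15.8 CPM in Top3b26 (log2 fold change -4.36, SE 1.02, edgeR adjusted p 0.0053), and Osi7 at 165, 184 and 503 CPM in the wild-type libraries and 17.1, 6.12 and 9.60 CPM in Top3b26. For both genes wild-type replicate 3 stood well above the other wild-type libraries, and all Top3b26 libraries lay below all wild-type ones. Among members without overlap and with a mean of at least 5 CPM in wild type, Osi14 had the largest fall, -4.90 (adjusted p 0.0042 by edgeR). The lowest log2 fold change of the tested members was -5.38.

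Chitin and tanning genes fell with a few exceptions. Of 45 tested of 51, 35 fell and 3 rose, with a median of -3.30 and 11 at the filter level in wild type only. Among members without overlap and with a mean of at least 5 CPM in wild type, zye fell most. It went from 7.21, 12.5 and 26.8 CPM to 0.901, 0.0474 and 0.243 CPM (log2 fold change -5.21, SE 1.22, edgeR adjusted p 0.0053). The lowest log2 fold change of the tested members was -5.38. The rises were small and even between replicates. Cht2, a chitinase gene, rose from 52.6, 63.2 and 65.1 CPM to 94.0, 88.8 and 91.8 CPM (log2 fold change 0.60, SE 0.12, edgeR adjusted p 0.0029). Duox, the gene of an oxidase that makes hydrogen peroxide, rose by 0.47 and mmy, which makes the sugar nucleotide used for chitin, by 0.54 on the log2 scale (edgeR adjusted p 0.0008 and 0.0059). None of the 3 overlapped between genotypes, which for Cht2 was a condition of the choice.

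Muscle genes of the contractile apparatus fell. The muscle list had 44 of 47 members tested, of which 37 fell and 2 rose, with a median of -2.85 and 5 at the filter level in wild type only. Summed levels were 6938, 7866 and 15240 CPM in wild-type embryos and 3199, 2813 and 2858 CPM in Top3b26. Act57B, a muscle actin gene, stood at 521, 833 and 2294 CPM in the wild-type libraries and 91.8, 30.5 and 46.4 CPM in Top3b26 (log2 fold change -4.43, SE 0.87, edgeR adjusted p 0.0029). Its wild-type replicates themselves spanned more than 4-fold, yet the lowest of them was above every Top3b26 library. Mf, which encodes a thick filament protein, went from 25.5, 54.6 and 130.5 CPM to 3.35, 1.90 and 1.42 CPM (log2 fold change -4.96, SE 0.83, edgeR adjusted p 0.0015). Msp300, the gene of the protein that ties nuclei to the muscle cytoskeleton, fell by 2.17 on the log2 scale (edgeR adjusted p 0.013). In the other direction mbc, needed for myoblast fusion, rose from 267, 268 and 284 CPM to 367, 339.5 and 382 CPM (log2 fold change 0.41, SE 0.10, edgeR adjusted p 0.0059), and Mef2, the transcription factor of muscle identity, did not pass at -0.09 (adjusted p 0.39 by edgeR). Without wild-type replicate 3, 33 members fell and the median was -2.54.

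Nervous system genes fell as well. All 66 members of the neuron and synapse list were tested, and 58 fell, 1 rose and 7 were not called. The median was -3.91, and 24 were at the filter level in wild type only. Summed levels were 1980, 1917 and 3150 CPM in wild-type embryos and 1298, 1186 and 1224 CPM in Top3b26. The acetylcholine receptor subunit gene nAChRalpha6 had the largest fall, from 2.87, 3.78 and 11.1 CPM to 0.225, 0.0948 and 0.121 CPM (log2 fold change -5.24, SE 0.97, edgeR adjusted p 0.0024). As further examples chosen after their values were seen, the synaptic vesicle gene Syt1 went from 21.1, 26.3 and 73.1 CPM to 2.48, 0.996 and 1.05 CPM and the pan-neuronal gene elav from 98.6, 75.2 and 122 CPM to 40.05, 12.7 and 33.7 CPM. Their log2 fold changes were -4.71 for Syt1 and -1.77 for elav (edgeR adjusted p 0.0017 and 0.0051), and neither gene overlapped between genotypes. unc-13 and Csp, which act in vesicle release, did not pass at -0.27 (adjusted p 0.084 by edgeR) and 0.07 (adjusted p 0.49 by edgeR). CASK, a scaffold protein gene, rose by 0.60 (edgeR adjusted p 0.0018). Without wild-type replicate 3, 56 members fell and 3 rose. Of 17 glial genes tested, 3 of them at the filter level in wild type only, 13 fell, led by the glutamate transporter gene Eaat1 at -4.96 (adjusted p 0.0024 by edgeR). loco and drpr, which are used by glia and other cells, did not pass at 0.12 (adjusted p 0.16 by edgeR) and -0.14 (adjusted p 0.15 by edgeR).

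Basement membrane genes fell without exception among the 19 tested, with a median of -2.51 and 2 at the filter level in wild type only. LanA, a laminin chain gene, went from 622, 544 and 1079 CPM to 212, 57.9 and 149 CPM (log2 fold change -2.42, SE 0.58, edgeR adjusted p 0.0058). trol, the gene of perlecan, went from 124, 172 and 394 CPM to 19.7, 6.83 and 8.51 CPM (log2 fold change -4.28, SE 0.89, edgeR adjusted p 0.0035). Ppn, which encodes papilin, fell by 3.09 on the log2 scale (edgeR adjusted p 0.0049). For all 3 genes the wild-type replicate 3 level was the highest and the Top3b26 libraries lay below all wild-type ones. Without that library 18 members fell. Blood cells make much of this matrix in the fly embryo, and of 20 haemocyte genes tested 13 fell and 1 rose, with a median of -2.29 and 7 at the filter level in wild type only. Among falls without overlap and with a mean of at least 5 CPM in wild type, atilla had the largest, -4.09 (adjusted p 0.0029 by edgeR). The lowest log2 fold change of the tested list was -6.28. The rise was that of crq, a receptor for dying cells, at 0.40 (adjusted p 0.0075 by edgeR).

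Gut, trachea and epithelial genes followed in smaller lists. Of 21 gut genes tested 18 fell and 1 rose, with a median of -2.72 and 6 at the filter level in wild type only. The maltase gene Mal-A3 went from 2.02, 8.45 and 18.1 CPM to 0.772, 0.427 and 0.527 CPM, while cad, whose RNA is also supplied by the mother, rose by 0.27 and bowl fell by 1.57 on the log2 scale (edgeR adjusted p 0.0094 and 0.011). Of 17 tracheal genes 13 fell and 1 rose, the latter being Cht2. Septate junction genes, which seal epithelia, split into 15 that fell, 1 that rose and 12 not called of 28, with a median of -0.49 and 2 at the filter level in wild type only. Tsp2A of the smooth septate junction went from 1.94, 3.99 and 13.8 CPM to 0.482, 0.142 and 0.283 CPM (log2 fold change -4.39, SE 0.96, edgeR adjusted p 0.0041), and yrt, a polarity gene, rose by 0.36 (edgeR adjusted p 0.0025). Mcr and l(2)gl did not pass at 0.15 (adjusted p 0.15 by edgeR) and -0.24 (adjusted p 0.083 by edgeR). Of 34 secretory machinery genes tested 6 rose (17.65%) and 10 fell (29.4%), not far from the background of 23.9% and 33%. The median was 0.02, and 2 were at the filter level in wild type only. The split was 2 and 11 with total counts, 4 and 10 without wild-type replicate 1 and 9 and 10 without wild-type replicate 2. There ps, a splicing regulator of salivary gland, fell by 3.17 on the log2 scale and Sec13 of the vesicle coat rose by 0.51 (edgeR adjusted p 0.0033 and 0.0048).

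Fat body genes went both ways, with 5 higher and 5 lower of 14 tested (35.7% each), the falls near the background of 33%. Of the 14, 2 were at the filter level in wild type only, and 3 were lower without wild-type replicate 3. apolpp, which encodes the lipid carrier of blood, stood at 1700, 1496 and 3252 CPM in the wild-type libraries and 427, 167 and 285 CPM in Top3b26 (log2 fold change -2.87, SE 0.60, edgeR adjusted p 0.0035). FASN1, the gene of fatty acid synthase, stood at 18.9, 23.0 and 38.6 CPM in the wild-type libraries and 65.3, 62.4 and 71.5 CPM in Top3b26 (log2 fold change 1.30, SE 0.23, edgeR adjusted p 0.002). Lsd-2, a lipid droplet protein gene, rose by 0.26 (edgeR adjusted p 0.035), a call lost with total counts and without wild-type replicate 1, wild-type replicate 3, Top3b26 replicate 1 or Top3b26 replicate 2. For FASN1 wild-type replicate 3 was the wild-type library nearest to Top3b26. Genotypes overlapped for none of the 3 genes, which for apolpp and FASN1 was a condition of the choice. Ecdysone genes mostly fell, 19 of 29 with 2 higher and 2 at the filter level in wild type only. Cyp18a1, which breaks the hormone down, fell by 4.38 on the log2 scale, EcR of the hormone receptor fell by 0.20, and its partner usp rose by 0.51 (edgeR adjusted p 0.0038, 0.013 and 0.0012). Leaving out any single library ended the call of EcR.

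Body plan genes were compared in 4 lists, and most Hox genes fell. Of 11 Hox genes and cofactors, 10 fell and exd alone rose, with a median of -1.80. Antp, a trunk Hox gene, went from 13.1, 9.04 and 19.2 CPM to 4.54, 1.04 and 3.97 CPM (log2 fold change -2.11, SE 0.51, edgeR adjusted p 0.0062). The cofactor hth went from 136, 94.6 and 161 CPM to 48.7, 15.2 and 47.2 CPM and exd from 219.7, 216 and 243 CPM to 248, 262 and 263 CPM, with exd at 0.19 (adjusted p 0.03 by edgeR). The call of exd was lost with total counts and without Top3b26 replicate 3. For Antp, hth and exd the genotypes did not overlap, which for Antp and exd was a condition of the choice. Top3b26 replicate 2 was the lowest for both falling genes. Without wild-type replicate 3, 8 of the list fell and 1 rose. Of 27 dorsoventral and mesoderm genes 15 fell, or 10 without that library, with if, an integrin gene, lowest at -2.82 (adjusted p 0.0047 by edgeR). Of 33 neuroblast genes 9 fell, a share of 27.3% that is below the background of 33%, and 3 fell without wild-type replicate 3, 5 without Top3b26 replicate 2. The median of the list was nonetheless -0.58, or between -0.72 and -0.29 without single libraries, against -0.02 over all tested genes. Its largest fall was that of E(spl)mbeta-HLH, a Notch target, at -1.60 (adjusted p 0.0065 by edgeR), while N itself did not pass at 0.22 (adjusted p 0.21 by edgeR). Of 27 segmentation genes 5 fell, or 18.5%, also below the background, and 1, cad, rose. The median of this list was -0.79, or between -0.97 and -0.41 without single libraries. There hry, the hairy gene, went from 5.53, 6.33 and 9.58 CPM to 1.87, 1.04 and 1.42 CPM (log2 fold change -2.30, SE 0.38, edgeR adjusted p 0.0015). The gap gene hb did not pass at 0.23 (adjusted p 0.055 by edgeR).

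**Figure D3:**
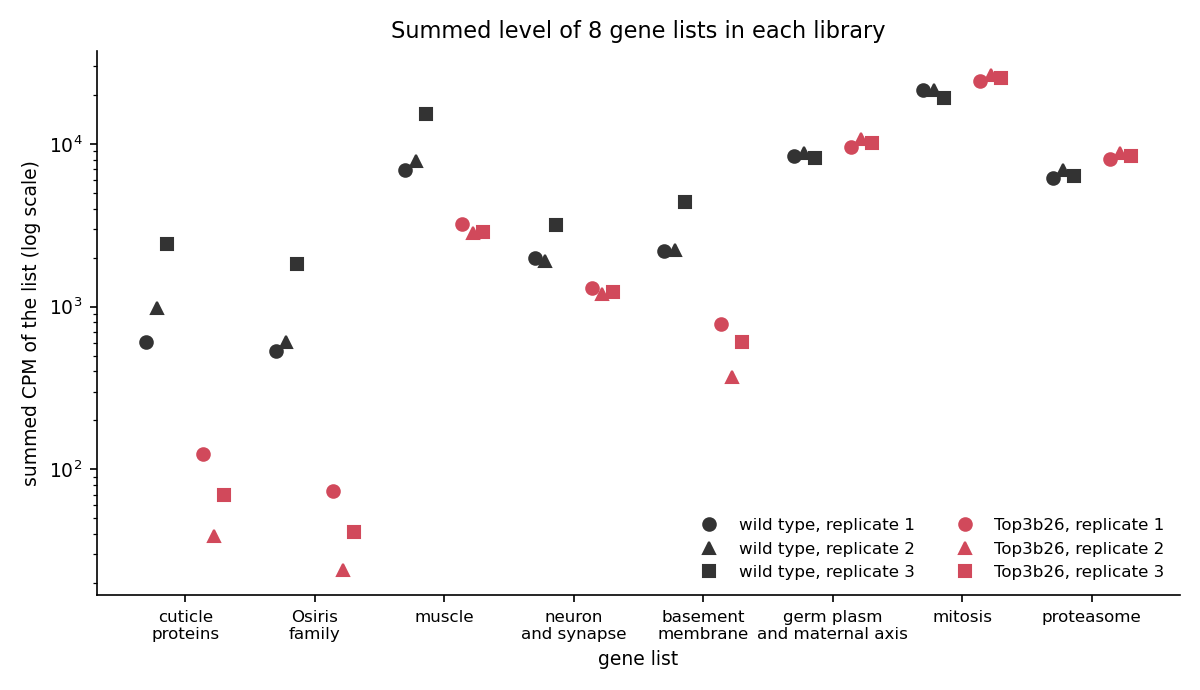
Summed CPM (log vertical axis) of 8 gene lists (horizontal axis) in each of the 3 wild-type and 3 Top3b26 libraries, 1 point a library. The 5 lists of differentiated tissue are lower in all Top3b26 libraries and highest in wild-type replicate 3. The mitosis, germ plasm and proteasome lists are higher in Top3b26 by a small step, and the sum over all genes, not drawn, is also higher there.

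Detoxification genes held large changes in both directions. Of 56 cytochrome P450 genes tested, of 84 in the table, 39 fell and 6 rose, with a median of -2.66 and 25 at the filter level in wild type only. Besides Cyp4p2, 3 others chosen after their values were seen were nearly lost. Cyp6a17 stood at 15.8, 14.5 and 15.3 CPM in the wild-type libraries and 0.0322, 0.142 and 0.0810 CPM in Top3b26 and Cyp12a4 at 9.997, 9.17 and 7.12 CPM in the wild-type libraries and 0.0322, 0.0948 and 0.0405 CPM in Top3b26, with log2 fold changes of -7.48 and -7.24. Cyp4p1, a close paralog of Cyp4p2 with which it may share reads, went from 4.43, 3.86 and 7.05 CPM to 0.0322, 0 and 0.121 CPM. Cyp6a9 rose from 2.78, 2.67 and 3.08 CPM to 9.42, 9.48 and 9.60 CPM (log2 fold change 1.74, SE 0.27, edgeR adjusted p 0.0011), Cyp6v1 rose by 0.74 (edgeR adjusted p 0.00063), and Cyp6a19 did not pass at 0.19 (adjusted p 0.39 by edgeR).

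Glutathione transferases, which attach glutathione to toxic compounds, were split evenly, 7 higher and 9 lower of 28, near the background in both directions, with 6 at the filter level in wild type only. GstE1 stood at 23.8, 25.5 and 25.2 CPM in the wild-type libraries and 0.643, 0.237 and 0.243 CPM in Top3b26 (log2 fold change -5.99, SE 0.33, edgeR adjusted p 9.2e-07). GstE11 stood at 13.4, 13.1 and 17.6 CPM in the wild-type libraries and 47.0, 51.7 and 55.8 CPM in Top3b26 (log2 fold change 1.81, SE 0.16, edgeR adjusted p 4.0e-05). The 2 genes moved in opposite directions by more than 3-fold each, and lack of overlap between genotypes was a condition of their choice. GstS1 rose by 0.50 and GstD1 did not pass at 0.38 (edgeR adjusted p 0.0043 and 0.11). UDP-glycosyltransferases fell in 18 of 23 and rose in 2, with 12 at the filter level in wild type only. Immune effector genes fell in 8 of 12 tested, among 58 in the table, and rose in 1, with 4, Tep3 among them, at the filter level in wild type only. The complement-like Tep3 went from 5.61, 8.15 and 23.3 CPM to 0.836, 0.332 and 0.283 CPM, Tep4 fell by 1.82, and PGRP-LE, a sensor of bacterial cell wall, rose by 0.34 on the log2 scale (edgeR adjusted p 0.0029, 0.002 and 0.045). The call of PGRP-LE was lost with total counts and without wild-type replicate 1, wild-type replicate 3 or Top3b26 replicate 2. Of 264 chemosensory genes 24 were tested and 20 fell, 18 of the tested ones being at the filter level in wild type only.

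Cell cycle genes rose by small amounts. Of 73 mitosis genes 37 rose (50.7%) and 2 fell, against the background of 23.9% and 33%, with a median of 0.29. In the 2500 genes of highest level the shares were 43.0% and 6.76%. The summed level of the mitosis genes was 21520, 21520 and 18990 CPM in wild-type embryos and 24280, 26290 and 25450 CPM in Top3b26. All Top3b26 libraries lay above all wild-type ones, as they did by a smaller step for the sum over all genes. CycB, the cyclin of entry into mitosis, stood at 3603, 3534 and 3143 CPM in the wild-type libraries and 4061, 4425 and 4254 CPM in Top3b26 (log2 fold change 0.31, SE 0.10, edgeR adjusted p 0.024), and CycA rose by 0.32 (edgeR adjusted p 0.026). These 2 calls were weak, and both were lost with total counts and without wild-type replicate 3, Top3b26 replicate 2 or Top3b26 replicate 3, that of CycB also without Top3b26 replicate 1. cid, the gene of the centromeric histone, had the largest rise, from 37.8, 44.1 and 40.3 CPM to 77.2, 74.5 and 72.8 CPM (log2 fold change 0.88, SE 0.13, edgeR adjusted p 0.00079). ana2, a centriole gene, fell from 69.6, 81.4 and 87.2 CPM to 55.3, 56.6 and 51.7 CPM (log2 fold change -0.54, SE 0.10, edgeR adjusted p 0.0025). Total-count normalization gave 32 higher and 2 lower, and leaving out wild-type replicate 3 gave 33 and 1.

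DNA replication genes rose in 21 of 43 (48.8%) and fell in 2, and in 13 and 4 with total counts. The background of rises was 23.9%, or 43.0% in the 2500 genes of highest level. PCNA, the sliding clamp, stood at 117, 126 and 118 CPM in the wild-type libraries and 209, 212 and 222 CPM in Top3b26 (log2 fold change 0.84, SE 0.08, edgeR adjusted p 4.8e-05). PolA1, the catalytic subunit of DNA polymerase alpha, went the other way, from 288, 302 and 281 CPM to 174, 182 and 184 CPM (log2 fold change -0.69, SE 0.10, edgeR adjusted p 0.0007). Both genes had tight replicates, and lack of overlap between genotypes was a condition of their choice. Orc1 of the origin complex and RnrS of ribonucleotide reductase rose by 0.32 and 0.36 (edgeR adjusted p 0.0084 and 0.045). The call of RnrS was lost with total counts and without wild-type replicate 1 or any one Top3b26 library. Replication-dependent histone genes are near-identical copies. Of 111 listed, 16 were tested, 5 of them at the filter level in Top3b26 only and 2 in wild type only, so the count of rises is no support. Of those tested 4 rose, or 2 without wild-type replicate 3 and 2 without Top3b26 replicate 2. Among rises without overlap and with a mean of at least 5 CPM in Top3b26, His2A:CG33865 had the largest, 1.27 (adjusted p 0.0009 by edgeR). The highest log2 fold change of the tested list was 2.74, and reads of such copies cannot be assigned with certainty.

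DNA damage genes rose in 21 of 45 (46.7%, background 23.9%, or 43.0% in the 2500 genes of highest level) and fell in 5, with a median of 0.30. Besides phr6-4, grp, the gene of the checkpoint kinase Chk1, rose from 459.5, 511 and 488 CPM to 713, 792 and 781 CPM (log2 fold change 0.65, SE 0.09, edgeR adjusted p 0.00056), and lok, that of Chk2, rose by 0.22 (edgeR adjusted p 0.037). skl, which promotes cell death, fell by 2.31 on the log2 scale (edgeR adjusted p 0.015). The call of skl was lost without wild-type replicate 3 or Top3b26 replicate 3, and that of lok with total counts and without any one library other than wild-type replicate 2. With total counts the list had 15 higher and 6 lower. Without single libraries between 14 and 24 rose, the fewest without wild-type replicate 3, and the count of falls was 3 without any one wild-type library and 1 without Top3b26 replicate 2 or Top3b26 replicate 3.

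Maternal and germ plasm transcripts were higher as a group. Of 30 tested 16 rose (53.3%) and 3 fell, with a median of 0.30. Summed levels were 8408, 8740 and 8123 CPM in wild-type embryos and 9601, 10630 and 10150 CPM in Top3b26. The sum over all genes was also higher in every Top3b26 library. vls, a germ plasm assembly gene, rose from 30.5, 33.6 and 35.0 CPM to 48.1, 55.2 and 57.6 CPM (log2 fold change 0.70, SE 0.15, edgeR adjusted p 0.0036), and Tl, the maternal receptor of dorsoventral patterning, rose by 0.44 (edgeR adjusted p 0.0042). As examples chosen after their values were seen, osk rose by 0.51, vas by 0.53 and bcd by 0.38 on the log2 scale (edgeR adjusted p 0.0037, 0.022 and 0.0037), and none of the 3 overlapped between genotypes. tsl, needed for terminal patterning, fell from 7.34, 7.60 and 11.1 CPM to 1.19, 0.284 and 0.729 CPM (log2 fold change -3.53, SE 0.62, edgeR adjusted p 0.0019), and bru1 did not pass at 0.18 (adjusted p 0.16 by edgeR). The call of vas was lost without wild-type replicate 1. Without wild-type replicate 3, 11 of the list rose and 3 fell.

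Genes that control maternal RNA were mixed. Of 23 tested 6 rose and 3 fell, but the balance turned to 2 and 6 with total counts and to 2 and 3 without wild-type replicate 3, as it did without Top3b26 replicate 2 or 3. wisp, the cytoplasmic poly(A) polymerase of egg activation, was at 1425, 1470 and 1121 CPM in the wild-type libraries and 575, 635 and 580.0 CPM in Top3b26 (log2 fold change -1.17, SE 0.13, edgeR adjusted p 0.00021). Even the highest Top3b26 library lay well below the lowest wild-type one. png, a kinase gene of the same transition, rose from 21.5, 22.5 and 23.1 CPM to 35.6, 34.4 and 37.7 CPM (log2 fold change 0.68, SE 0.12, edgeR adjusted p 0.0017). tral rose by 0.39 (edgeR adjusted p 0.042), a call lost with total counts and without wild-type replicate 3 or any one Top3b26 library, and me31B, the helicase of stored RNA, did not pass at 0.14 (adjusted p 0.39 by edgeR).

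Proteasome subunit genes gave the highest share of rises among the lists compared. Of 36 tested 29 rose (80.6%) and 2 fell, with a median of 0.42. Their summed level was 6204, 6897 and 6380 CPM in wild-type embryos and 8030, 8822 and 8417 CPM in Top3b26, without overlap. The sum over all genes did not overlap either, with a smaller step. Prosalpha1, a subunit of the core barrel, rose from 13.5, 15.8 and 12.1 CPM to 30.4, 28.6 and 27.6 CPM (log2 fold change 1.06, SE 0.14, edgeR adjusted p 0.0004). Rpn1 and Rpn2 of the cap rose by 0.46 and 0.23 on the log2 scale (edgeR adjusted p 0.0011 and 0.018), while Rpn7 of the cap fell from 129, 150.1 and 149 CPM to 104, 99.4 and 102 CPM (log2 fold change -0.49, SE 0.08, edgeR adjusted p 0.0016). The call of Rpn2 was lost with total counts and without wild-type replicate 3 or Top3b26 replicate 1. Total counts gave 23 higher and 2 lower, and without wild-type replicate 3 there were 23 and 1. Ubiquitin conjugation genes rose in 17 of 45 (37.8%, background 23.9%, or 43.0% in the 2500 genes of highest level) and fell in 2. There were 10 higher by total counts, 10 without wild-type replicate 3 and 11 without Top3b26 replicate 2. Cul6, a cullin gene, rose by 0.84, poe, a very large ligase gene, by 0.42, and Uba1, the activating enzyme, by 0.23 (edgeR adjusted p 0.0063, 0.043 and 0.039). The calls of poe and Uba1 were lost with total counts, without wild-type replicate 3 and without any one Top3b26 library, and that of Uba1 also without wild-type replicate 1.

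Chromatin and small RNA genes mostly rose where they were called. Of 44 heterochromatin and repressor genes 14 rose (31.8%) and 2 fell (4.5%), against the background of 23.9% and 33%. In the 2500 genes of highest level the shares were 43.0% and 6.76%, and the part of level in the lists named here was not tested. su(Hw), an insulator protein gene, rose from 212, 215 and 198 CPM to 362, 416 and 389 CPM (log2 fold change 0.90, SE 0.12, edgeR adjusted p 0.0005). ph-p, a Polycomb group gene, fell from 35.4, 31.2 and 47.7 CPM to 22.4, 13.5 and 18.9 CPM (log2 fold change -1.06, SE 0.20, edgeR adjusted p 0.0026), and kis and dom, genes of nucleosome remodellers, did not pass at 0.22 (adjusted p 0.33 by edgeR) and 0.15 (adjusted p 0.35 by edgeR). Of 35 piRNA and siRNA genes 14 rose (40%) and 3 fell (8.6%). shu, a cochaperone of piRNA loading, rose from 84.6, 103.1 and 98.9 CPM to 165, 195 and 179 CPM (log2 fold change 0.91, SE 0.14, edgeR adjusted p 0.001). piwi, which silences transposons in germ line and embryo, rose by 0.53 and spn-E by 0.48, while tud, a germ granule scaffold gene, fell by 0.44 (edgeR adjusted p 0.0083, 0.0025 and 0.0053). Nuclear pore genes rose in 10 of 25 (40%) and fell in 1, the latter being Nup160 at -0.66 (adjusted p 0.0012 by edgeR). Aminoacyl-tRNA synthetase genes rose in 14 of 33 (42.4%) and fell in 1. CysRS was at 0.70 (adjusted p 0.0002 by edgeR) and IleRS at -0.36 (adjusted p 0.0051 by edgeR), the latter not called without wild-type replicate 2.

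Dosage compensation RNAs fell while a protein partner rose. lncRNA:roX2, which guides the male X chromosome complex, went from 16.6, 15.9 and 49.1 CPM to 5.98, 2.04 and 4.58 CPM (log2 fold change -2.69, SE 0.58, edgeR adjusted p 0.0039). lncRNA:roX1, named after its values were seen, went from 98.7, 75.1 and 152 CPM to 46.6, 12.6 and 43.2 CPM. msl-3 of the same complex rose from 67.8, 67.4 and 60.8 CPM to 114, 122 and 107 CPM (log2 fold change 0.81, SE 0.12, edgeR adjusted p 0.00076), and msl-1 did not pass at 0.29 (adjusted p 0.1 by edgeR). The sex-determination gene Sxl did not pass at 0.01 (adjusted p 0.93 by edgeR). The whole list had 4 higher (26.7%) and 5 lower (33.3%) of 15, near the background of 23.9% and 33%. Of the 15, 2 were at the filter level in wild type only, and 2 were higher without wild-type replicate 3, Top3b26 replicate 1 or Top3b26 replicate 3.

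**Figure D4:**
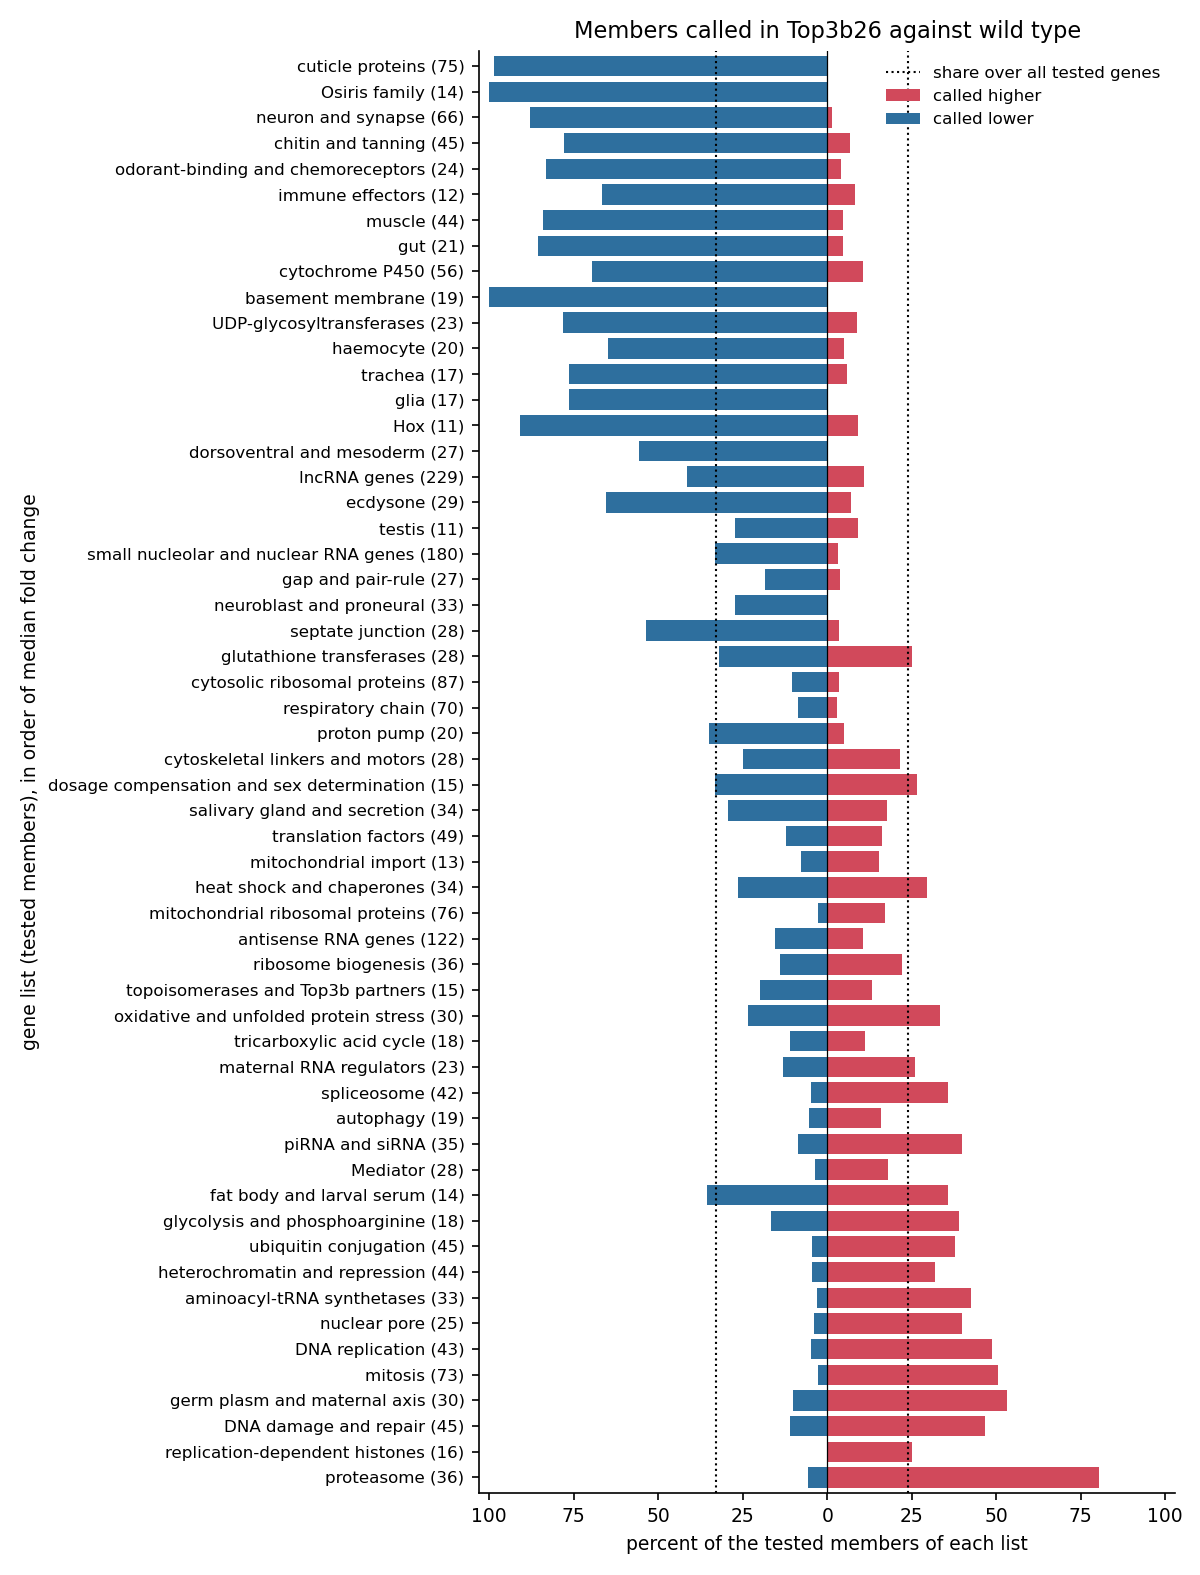
Percent of the tested members of each gene list called higher (right) and lower (left) in Top3b26 against wild type, with tested members in brackets, the lists ordered by median fold change, and dotted lines at the shares over all tested genes, 23.9 and 33.0%. Cuticle, Osiris and basement membrane lists are almost wholly lower, and the proteasome list is mostly higher.

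Genes of ribosomes, respiration and translation were called less often than the background in both directions. Of 87 cytosolic ribosomal protein genes 3 rose and 9 fell, with a median of -0.09. With total counts 26 fell, and without wild-type replicate 2 or 3 the counts were 4 higher and 4 lower. The split was 1 and 5 without Top3b26 replicate 1 and 2 and 4 without Top3b26 replicate 3. RpS21 fell from 144, 143 and 182 CPM to 71.3, 65.1 and 54.3 CPM (log2 fold change -1.30, SE 0.16, edgeR adjusted p 0.00039), and RpS5b, a paralog used in germ line, rose from 517, 563 and 518 CPM to 815, 886 and 954 CPM (log2 fold change 0.73, SE 0.12, edgeR adjusted p 0.0012). Mitochondrial ribosomal protein genes had 13 higher and 2 lower of 76, which became 8 and 11 with total counts and 8 higher without wild-type replicate 1. mRpS5 had the largest rise there, 1.10 (adjusted p 0.00096 by edgeR). Respiratory chain genes had 2 higher and 6 lower of 70, or 1 and 14 with total counts, 3 and 3 without wild-type replicate 2 and 5 and 4 without wild-type replicate 3. There ND-42 of complex I fell from 63.7, 68.6 and 75.1 CPM to 38.5, 35.0 and 32.1 CPM (log2 fold change -0.97, SE 0.09, edgeR adjusted p 5.6e-05). Translation factor genes had 8 higher and 6 lower of 49, turning to 1 and 9 with total counts. The split was 3 and 6 without wild-type replicate 1 or 3 and 12 and 4 without wild-type replicate 2, and 4 were higher without any one Top3b26 library. Their largest changes were a fall of eEF1alpha2, an elongation factor that brings tRNA to the ribosome, by 2.46 on the log2 scale and a rise of eIF2D by 0.62 (edgeR adjusted p 0.0031 and 0.0016).

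Sugar metabolism and stress genes went both ways. Glycolysis genes had 7 higher (38.9%) and 3 lower (16.7%) of 18, or 5 each way with total counts and 5 each way without wild-type replicate 1. Tpi rose from 251, 301 and 311 CPM to 476, 487 and 499.6 CPM (log2 fold change 0.76, SE 0.10, edgeR adjusted p 0.00047), and Eno and PyK rose by 0.41 and 0.35 (edgeR adjusted p 0.0061 and 0.016), the call of PyK being lost without wild-type replicate 3. Ldh, which makes lactate, fell from 15.4, 16.4 and 44.0 CPM to 3.73, 1.28 and 2.27 CPM (log2 fold change -3.37, SE 0.67, edgeR adjusted p 0.0031). Chaperone genes had 10 higher (29.4%) and 9 lower (26.5%) of 34, near the background of 23.9% and 33%. Of the 34, 4 were at the filter level in wild type only. The split was 5 and 9 with total counts, and 6 were higher without wild-type replicate 3 or Top3b26 replicate 2. CCT1, a subunit of the chaperonin that folds actin and tubulin, rose by 0.43, the small heat shock gene l(2)efl fell by 4.64, and Hsp83 did not pass at 0.06 on the log2 scale (edgeR adjusted p 0.0026, 0.0026 and 0.69). Oxidative and unfolded protein stress genes had 10 higher (33.3%) and 7 lower (23.3%) of 30, or 7 and 8 with total counts. The metal-binding MtnA went from 10.9, 19.5 and 49.99 CPM to 2.48, 1.42 and 1.34 CPM, and cnc, the regulator of oxidative defence, rose from 390.0, 347 and 289 CPM to 441, 481 and 445 CPM (edgeR adjusted p 0.0011 and 0.0054).

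Long genes were called lower more often than short ones. Protein-coding genes were split into 4 groups of about equal size by the span RefSeq gives them, introns included. In the longest group, above 7190 bases, 1201 of 2338 genes fell (51.4%) and 358 rose (15.3%), with a median of -0.58. In the second shortest, between 1632 and 2995 bases, 602 of 2336 fell and 747 rose. Genes called higher had a median span of 2790 bases and genes called lower one of 4769 bases. Many genes of nerve, muscle and matrix are long, and the parts of span and tissue in these counts were not tested apart. By chromosome, X genes rose in 29.3% and fell in 26.4% of 1677, and genes of the small chromosome 4 rose in 1 and fell in 38 of 93.

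Among noncoding genes, falls outnumbered rises in the counts below, as over all tested genes, with 23.9% higher and 33% lower. Some genes were tested through one genotype alone. Of 195 tested genes that RefSeq classes as lncRNA, 18 rose (9.2%) and 92 fell (47.2%), with a median of -1.28. Of the 195, 55 were at the filter level in wild type only and 10 in Top3b26 only. Of 152 small nucleolar RNA genes 3 rose (1.97%) and 57 fell (37.5%), a median of -0.83, with the share of falls near the background. The count of falls in the list of small nucleolar and nuclear RNA genes went from 60 of 180, of which 15 were at the filter level in wild type only, to between 23 and 32 when any one library other than wild-type replicate 1 was left out. Of 122 antisense RNA genes 13 rose (10.7%) and 19 fell (15.6%), both shares below the background. Of the 122, 19 were at the filter level in wild type only and 15 in Top3b26 only. Without wild-type replicate 3, 7 rose, and without Top3b26 replicate 1, 8 rose. lncRNA:CR34335 stood at 707, 556 and 650.1 CPM in the wild-type libraries and 246, 271 and 301 CPM in Top3b26 (log2 fold change -1.23, SE 0.17, edgeR adjusted p 0.00067), and asRNA:CR45189 rose from 1.31, 0.849 and 1.44 CPM to 5.11, 5.36 and 5.22 CPM (log2 fold change 2.12, SE 0.27, edgeR adjusted p 0.00039). Neither overlapped between genotypes, which for asRNA:CR45189 was a condition of the choice. Long noncoding and antisense genes were 26 of the 165 genes that rose 2-fold or more, against 317 of all 10001 tested. Values of antisense genes and of genes they overlap are uncertain, since it is not stated whether counting used strand.

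**Figure D5:**
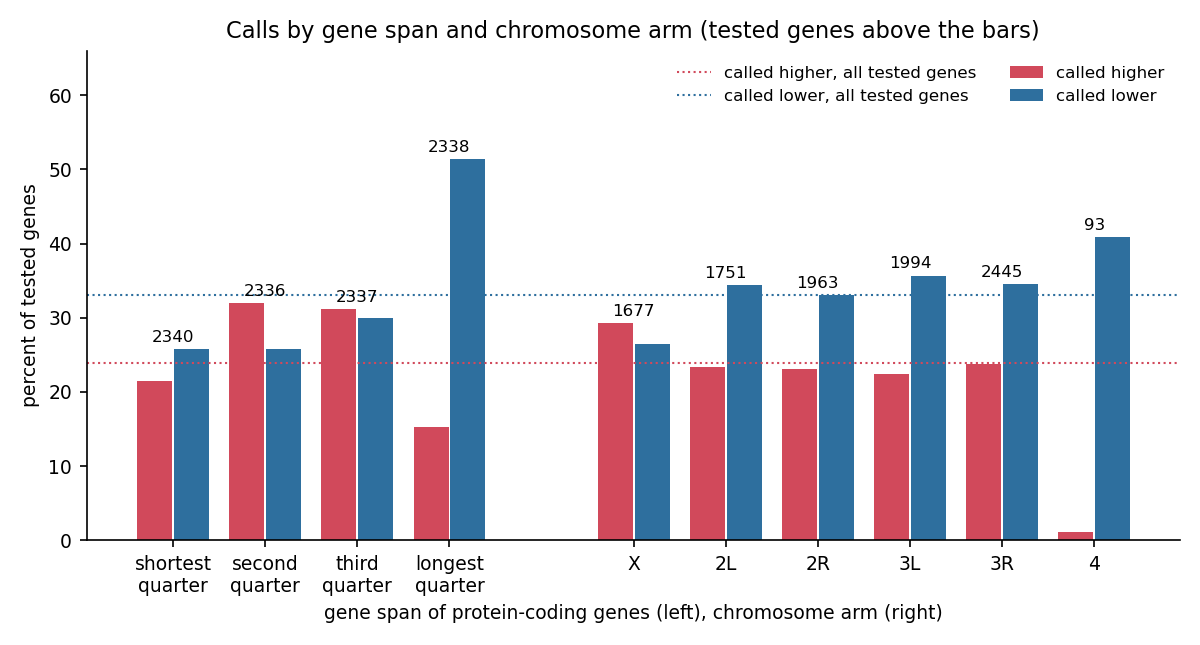
Percent of tested genes called higher and lower in Top3b26 for 4 groups of protein-coding genes by span (left) and for chromosome arms (right), with the number tested above each pair and dotted lines at the shares over all tested genes. The longest group has 51.4% called lower, and chromosome 4 has 1 gene called higher.

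With the late marker score as a covariate 254 genes were called, 105 higher and 149 lower, and 233 of them were among the 5695, all in the same direction. Of the cuticle, Osiris, chitin, neuron, basement membrane, Hox, mitosis and germ plasm lists, 0 of 333 tested members were called by edgeR under it, and 43 had an unadjusted p under 0.05; of the muscle list 1 was called. The score is built from 4 of these lists and separates wild type from Top3b26, so score and genotype cannot be fully told apart in these 6 libraries. Genes still called included Top3beta, the 5 rises from lncRNA:CR40469 to Gnptab and the 5 falls from CG30428 to Oseg5 described first, as well as phr6-4, GstE1, GstE11, FASN1, wisp, PCNA, PolA1, Prosalpha1, ND-42 and Nup160. Cytochrome P450 genes kept 5 falls, and glutathione transferases 3 rises and 2 falls.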

How the data were processed

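Total RNA of embryos was sequenced as paired reads on an Illumina NovaSeq from CORALL total RNA libraries after Trizol extraction, per the labels' protocols. The authors deposited whole-number read counts per feature, which were used as deposited. The submitters' processing notes name bcl2fastq, HISAT2, featureCounts and DESeq2. The genome build, the annotation release and the strand setting are not given in the sources used here, so no coordinates are printed. Symbols, RNA class, arm and span come from the RefSeq table of assembly Release 6 plus ISO1 MT.

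Samples were grouped by the labels' genotype. Counts of all 12 total RNA libraries were fitted together in R 4.3.3 with edgeR 4.0.16, using filterByExpr with a minimum count of 10, TMM factors, genotype as the sole factor and the quasi-likelihood test. Adjusted p-values are Benjamini-Hochberg values over all 10238 tested features, of which 10001 were FlyBase genes, and a gene was called under 0.05. The standard error (SE) of a log2 fold change was taken from the test statistic. The fit was tested on counts simulated from the real means and spread, with 100 features changed 2-fold and 100 changed 4-fold. It recovered 51% and 68% of them, and 7 of its 126 calls were false. A gene that did not pass may thus still have changed. CPM values use TMM-scaled library sizes. Alternatives were DESeq2 1.42.0, RLE or total-count scaling, no count filter, a mean of at least 50 counts, the 6 compared libraries alone, the replicate number as a block, a 2-fold minimum, the late marker score as a covariate, FlyBase genes alone, and each library left out in turn.

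The text names Top3beta, the 5 largest rises and falls among called genes without overlap and with a mean of at least 5 CPM in the higher genotype, and in each list the largest rise and fall under the same conditions and the 2 members of highest level. Other genes were picked after their values were seen, and are named as such. The comparison and the 61 lists were chosen with earlier results of these data known. Library totals ranged from 22400118 to 31125584 counts in the compared genotypes, and counting error adds to the spread of genes near the filter level.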

Additional observations from a re-analysis of the deposited data

Results flagged for a closer look

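Features of the count table other than FlyBase genes lie outside the comparison of genes above. Of 237 such features tested, 222 of them with transposon insertion identifiers, 9 were higher in Top3b26 than in wild type and 145 were lower by edgeR. The largest rise was that of the insertion FBti0019077, from 0.0844, 0.0425 and 0.156 CPM in wild type to 8.65, 9.91 and 9.52 CPM in Top3b26, a log2 fold change of 6.55 with an edgeR adjusted p of 4.1e-06. Copies of a transposon share sequence, so reads of single insertions are uncertain.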

How the results depend on the processing

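Of 5695 genes called, 2392 were higher and 3303 lower. A mean of at least 50 counts, which tests fewer genes, gave 3676 with 1566 higher and 2110 lower, a 2-fold minimum gave 3012 with 165 higher, and the late marker covariate gave 254 with 105 higher and 149 lower. Leaving out single libraries gave between 4477 and 5883 called, 1819 to 2786 higher and 2658 to 3280 lower, with the lowest total without wild-type replicate 3. The log2 fold change of Top3beta lay between -2.49 and -2.22 without single libraries. DESeq2 called 5954 and FlyBase genes alone 5623. Replicate numbers do not pair the libraries, since the deviations of same-numbered libraries correlated at -0.34, 0.52 and -0.06, and the replicate block gave 6031 calls. Under the covariate the median of the piRNA and siRNA list turned to -0.13, and none of the following was called: if 0.13, LanA 0.15, Ppn 0.23, lok -0.044, Tsp2A 0.21, Osi6 0.73, skl 0.062, TwdlF 0.39, Osi7 0.13, Osi14 0.083, dpy 0.30 and Msp300 0.951; the cause was not tested. Of genes not called, hb, msl-1 and loco were called without wild-type replicate 2, N and kis without wild-type replicate 1, and unc-13, l(2)gl and drpr with total counts. Counts below the filter level limit what can be said of genes near 0.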

Other observations

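Most tested members of 3 families of adhesion molecules fell. Families were formed from the shared letters that begin a symbol, and the families and genes given here were picked after their values were seen. Most tested members of several families reached the filter level in wild type only, which favours falls in Top3b26, so their counts and medians are a description and no support. Of 19 tested dpr genes, which encode cell surface proteins of neuronal pairing, 18 fell and 1 rose, with a median log2 fold change of -4.08 and 14 at the filter level in wild type only. dpr12 stood at 3.50, 5.56 and 14.7 CPM in the wild-type libraries and 0.515, 0.237 and 0.243 CPM in Top3b26 (log2 fold change -4.54, SE 0.83, edgeR adjusted p 0.0023). dpr6 was the one that rose, from 20.2, 23.5 and 25.8 CPM to 73.9, 101.1 and 90.7 CPM (log2 fold change 1.93, SE 0.13, edgeR adjusted p 4.9e-06), with no overlap between genotypes. Of the 12 DIP genes, whose proteins bind those of the dpr family, 10 fell, 7 of the family were at the filter level in wild type only, and DIP-alpha did not pass (edgeR adjusted p 0.99). All 13 tested beat genes, named for axon guidance in motor neurons, fell, with 11 at the filter level in wild type only, and beat-Ia went from 7.002, 6.67 and 11.9 CPM to 2.15, 0.854 and 1.34 CPM (log2 fold change -2.55, SE 0.57, edgeR adjusted p 0.0046). Wild-type replicate 3 was the highest library for dpr12 and beat-Ia, and both were still called without it.

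Other families named by shared letters held falls as well. Of 12 tested Jon genes, digestive proteases, 11 fell, 8 of them with 0 counts in all Top3b26 libraries. Those 8 passed the filter through libraries other than Top3b26, whether or not every wild-type library reached the level. In the family 3 were at the filter level in wild type only, and its count of falls is a description and no support. Jon65Aiii went from 1.01, 1.95 and 6.15 CPM to 0.0643, 0.0474 and 0.0405 CPM. Of 27 tetraspanin genes of the Tsp family 22 fell and 2 rose, 12 of the family being at the filter level in wild type only, with Tsp42Ea at -4.16 (adjusted p 0.00065 by edgeR) and Tsp42Ee at -0.81 (adjusted p 0.0039 by edgeR). Of 10 neprilysin-like genes 9 fell and 1, Nepl3, rose (log2 fold change 0.90, SE 0.16, edgeR adjusted p 0.0019), and 4 were at the filter level in wild type only. mth, a receptor gene known for its part in lifespan, was at 29.9, 29.2 and 35.5 CPM in the wild-type libraries and 0.450, 0.379 and 0.324 CPM in Top3b26, with even wild-type replicates, and at 36.3, 36.9 and 40.8 CPM in Y332F and 25.8, 28.9 and 30.4 CPM in delRGG. Rises included Naglu, a lysosomal enzyme gene, from 60.03, 65.9 and 66.6 CPM to 208, 230.3 and 224 CPM (log2 fold change 1.78, SE 0.08, edgeR adjusted p 7.1e-08). Among the 165 genes that rose 2-fold or more, 15 pairs were adjacent in the RefSeq order of tested genes. One such pair on arm 3R was CG18547, from 7.21, 4.63 and 5.65 CPM to 15.9, 18.0 and 17.1 CPM, and CG3397, from 1.48, 1.49 and 1.91 CPM to 15.0, 16.9 and 15.0 CPM.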
